A study of Caenorhabditis elegans with 2 samples.

Results

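The X-linked genes xol-1, ins-39, gtr-1, nspc-17 and F20B6.9 of Caenorhabditis elegans are described here by the regions that ChIP-seq of UNC-39 placed beside them. They are 5 of 2731 protein-coding genes on X and of 19973 on the 6 nuclear chromosomes. They were chosen by measured values and sequence together. Each is the gene whose transcript 5′ end is nearest to a peak of the optimal list that also holds part of the MEX motif. A region was given to a gene when its summit lay in the gene body or within 5000 bases of a transcript 5′ end. The rank of the peaks in the pooled list and the word they hold are therefore descriptions of the choice, and no test was run on them.

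The material was whole L4 larvae of the strain OP186, labelled as males and females pooled. Its worms carry the allele unc-119(ed3) on III and the transgene wgIs186, a stable insertion that makes UNC-39 tagged with GFP-FLAG at its C terminus. The 2 biological replicates share this genotype and stage, and there was no other group. Both come from a single transgenic line, and the labels give neither the promoter of the transgene nor a description of the control. UNC-39 is a homeodomain protein of the sine oculis type, with known roles in mesoderm and nerve cell development. ChIP-seq recovers DNA bound by a protein and reports it as regions of the genome. Regions were called by the authors in each replicate and in the pool of both, with 30000 in each list, and a further list of 63 optimal peaks was thresholded for reproducibility. The value used for all ranks is the signal value that the authors deposited for each region, whose scale is not stated, and rank 1 is the highest. Read depth is unknown, and each list was kept at a fixed length, so its weakest regions may be background.

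In worms the dosage compensation complex, a condensin-like assembly with added sex-specific proteins, binds both X chromosomes of hermaphrodites and lowers their transcription. It is first recruited at a limited number of X sites that hold the MEX motif, short for motif enriched on X, and then spreads along the chromosome. Whether the complex is loaded is decided in the early embryo by xol-1. High XOL-1 in males keeps sdc-2, the gene for the hermaphrodite-specific loading protein, off, and low XOL-1 in hermaphrodites leaves it on. Proteins of the complex were not measured in these larvae, so the label of the peaks rests on their sequence and on their chromosome alone.

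The motif was searched as the core word CGCGCAGG, which is part of MEX, on both strands and over the full 400 bases of each peak. It stood in 6 of the 63 optimal peaks, all on X, and in 51 of the 29918 pooled regions that overlap no optimal peak (0.170%). The other 15 optimal peaks on X and the 42 on autosomes hold no exact copy. The 6 peaks hold 9 copies in all. They are printed because the match among them runs past the word that was searched. Each is read on the strand that shows the word, with 10 bases on either side, and capitals mark the core word. The coordinates of these stretches on build ce11 are chrX:8036392-8036419 (minus strand) and chrX:8036424-8036451 (plus) for xol-1, chrX:1345045-1345072 (plus) for ins-39, chrX:806663-806690 and chrX:806739-806766 (both plus) for gtr-1, chrX:14525891-14525918 (minus) for nspc-17 and chrX:4209257-4209284 (minus) for F20B6.9. Those of the sixth peak, nearest to W02H3.3, are chrX:11094116-11094143 and chrX:11094217-11094244 (both minus).
xol-1, word 1: aattttttatCGCGCAGGgacgtatgtc
xol-1, word 2: atttttccatCGCGCAGGgaacccttcg
ins-39: caatgtcattCGCGCAGGgcagctgagc
gtr-1, word 1: gtgcgattatCGCGCAGGggtgtttgtt
gtr-1, word 2: taaaccgataCGCGCAGGgaaaaaaaaa
nspc-17: tattgcctatCGCGCAGGgacagatgtg
F20B6.9: ttgccgctatCGCGCAGGgacacctctt
W02H3.3, word 1: cgttttatatCGCGCAGGgagcttatgc
W02H3.3, word 2: gggaaccattCGCGCAGGgacacctcac

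Outside the 8 searched bases, all 9 copies have G directly after the word, and 7 of 9 have A after that G. Directly before the word 8 of 9 have T, and 6 of 9 have A before that T. At the remaining flanking positions the commonest base is shared by at most 6 of the 9. A search of all 10-base words in the same optimal peaks returned a longer form of the core word. The search was not given that word, but the peaks were already known to hold it, so the outcome is no separate support. Among the 45 words held by at least 5 optimal peaks, TCGCGCAGGG had the highest share in optimal peaks relative to the other pooled regions. The 6 optimal peaks that hold it are those with the core word, and of the 29918 remaining pooled regions 4 hold it.

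Copies with 1 mismatch to the 10-base word lay close to the exact ones. In what follows a substitution gives the base of the 10-base word, its position counted from 1 at the 5′ end, and the base of the genome. At F20B6.9 and at nspc-17 a copy with the substitution C6A stood on the opposite strand to the exact word. At gtr-1 a copy with G5A stood on the opposite strand and its second core word stands in a copy with T1A, so that peak holds 3 copies. The peaks of xol-1 and W02H3.3 hold 2 exact copies each, and that of ins-39 a single exact one. In all, 5 of the 6 peaks have at least 2 copies with at most 1 mismatch. None of the other 15 optimal peaks on X did, none of the 42 on autosomes, and 2 of the 5778 other pooled regions on X (0.0346%). A single such copy was present in 2 of the other 15 X peaks and in 3 of the 42 autosomal ones. This count of near copies was made after the sequences had been seen, and it starts from peaks chosen for an exact copy.

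**Figure D1:**
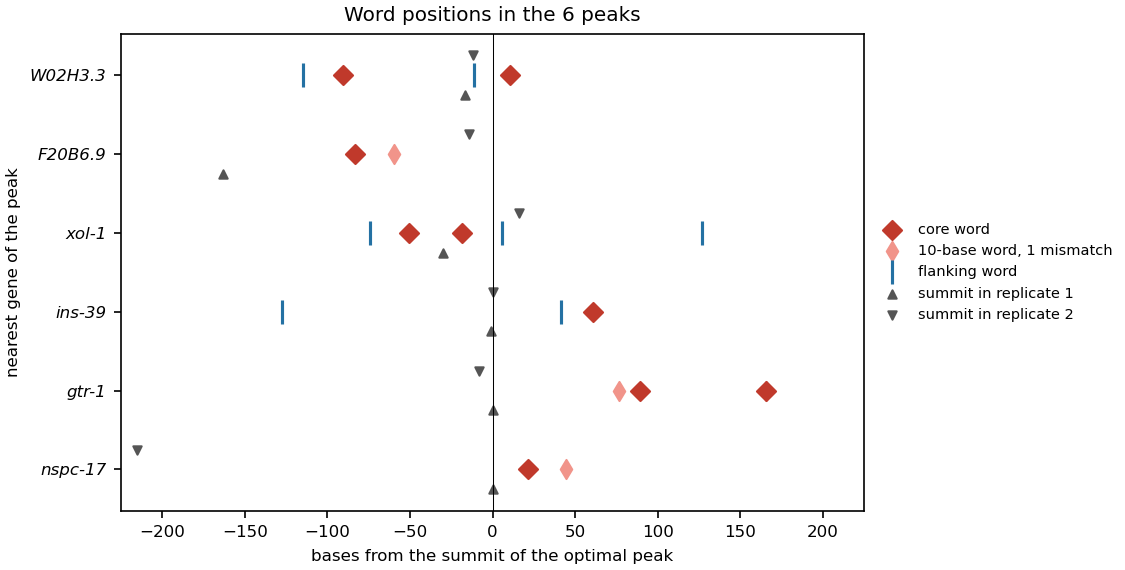
Position of each word in the 6 peaks, in bases from the summit of the optimal peak (x axis), 1 row for each peak. Red diamonds are exact core words, pale narrow diamonds are copies of the 10-base word with 1 mismatch, bars are the flanking word GTGGATAA, and triangles pointing up and down are the summits of the strongest overlapping region in replicates 1 and 2. The middles of the core words lie between 10.5 and 165.5 bases from the summit.

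The longer stretches around the words are given for xol-1 and gtr-1, which hold several copies, and for ins-39, where the peak lies closest to a gene start. Capitals mark the core word or its reverse complement, CCTGCGCG, and all are on the plus strand of ce11. They run over chrX:8036362-8036481, chrX:806633-806786 and chrX:1345015-1345102.
xol-1: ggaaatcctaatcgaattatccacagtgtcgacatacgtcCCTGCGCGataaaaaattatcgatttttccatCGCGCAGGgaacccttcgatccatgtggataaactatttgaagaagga
gtr-1: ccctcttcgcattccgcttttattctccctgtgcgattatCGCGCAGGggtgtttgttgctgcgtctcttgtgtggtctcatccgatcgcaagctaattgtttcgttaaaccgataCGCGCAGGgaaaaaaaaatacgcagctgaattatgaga
ins-39: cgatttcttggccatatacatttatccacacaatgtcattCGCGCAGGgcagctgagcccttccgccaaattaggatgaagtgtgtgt

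The pair of words at xol-1 point away from each other, with lower coordinates 32 bases apart, while those at gtr-1 point the same way and start 76 bases apart. A second word, GTGGATAA, was noticed in these stretches after they had been printed and was then searched on both strands. It stood in the peaks of xol-1 (3 copies), ins-39 (2) and W02H3.3 (2), thus in 3 of 6 peaks. Of the 29918 pooled regions outside the optimal list 0.916% hold it. Among the remaining optimal peaks it stood in 1 of 15 on X and 1 of 42 on autosomes. The word shifted by 1 base, TGGATAAA, was less particular to the 6 peaks. It stood in 4 of them, in 3 of the 15, in 0 of the 42 and in 2.13% of the other pooled regions. At both words of xol-1 a copy of GTGGATAA starts 24 bases downstream of the first base of the core word on the same strand. At W02H3.3 the distances are 24 and 22 bases. The copy nearest to the word at ins-39 lies upstream on the opposite strand, 19 bases away by lower coordinates. Over the whole genome 5 core words had GTGGATAA, with at most 1 mismatch, 22 to 24 bases downstream. That range of distances was taken from the 4 core words of xol-1 and W02H3.3, which are among the 5. Their place on X and in a region was therefore fixed in advance. Only the fifth is a further find, on X in the pooled region of rank 201 near Y41G9A.17. At ins-39, gtr-1, nspc-17 and F20B6.9 no copy with at most 1 mismatch starts 8 to 40 bases downstream of a core word on its strand.

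The gene xol-1 (WBGene00006962, X 8041313 to 8044409, plus strand), the switch that sets sex and X dosage, has its peak far upstream. The summit lies 4857 bases before the transcript start, between genes, just inside the bound of 5000 bases. Genes just outside that bound were W04G3.11, 5025 bases from the peak nearest to W02H3.3, and D1025.1, 5120 bases from the nspc-17 peak. The gene body of C34D10.1, which encodes a protein with a major sperm protein domain, is 4842 bases away on the other side, so the peak sits in the middle of a gap of 9698 bases. Closer than either are short RNA genes: the ncRNA gene C18A11.13 at 218 bases and the tRNA gene WBGene00022939 at 229 bases.

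The xol-1 peak has a signal value of 33.7 and rank 18 in the pooled list. In replicate 1 its strongest overlapping region has a signal value of 20.3 and rank 29, and in replicate 2 it has 16.8 and rank 14. It is thus among the strongest 63 regions of both replicates, and their summits lie 30 and 16 bases from the pooled summit. Within the window the next pooled regions have ranks 3703, past the 3′ end of xol-1, and 16926, beside the peak itself, and none lies in the xol-1 gene body or within 2000 bases of its start.

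The insulin-like peptide gene ins-39 (WBGene00017668, X 1343758 to 1344421, minus strand) has its peak closest to a start. The summit is 577 bases upstream. The nearest other protein-coding genes, ttr-37 of the transthyretin-like family and F56C3.3, are 6582 and 13349 bases from the gene, so the peak has no second candidate within the window. The signal value is 30.4 at rank 29 in the pooled list, 20.9 at rank 26 in replicate 1 and 8.76 at rank 393 in replicate 2. The summits of both replicates lie within 1 base of the pooled summit, although the rank in replicate 2 is lower. A second region upstream, at 1630 bases in the pooled list, ranked 6757 there and 892 in replicate 2 and had no counterpart in replicate 1.

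The gene gtr-1 (WBGene00017779, X 802778 to 804269, plus strand) encodes a G protein-coupled receptor that acts in sensory neurons in the heat shock response. Its peak does not lie at its start. The summit is 3809 bases downstream of the 5′ end and 2318 bases past the gene's end, between genes. It lies 404 bases from the 3′ end of F25E2.2, whose own 5′ end is 4140 bases away, so both genes hold the peak in their windows. The signal value is 25.98 at rank 53 in the pooled list, 13.3 at rank 252 in replicate 1 and 12.3 at rank 58 in replicate 2. Its rank is better in replicate 2, as at xol-1, while the remaining members rank better in replicate 1. The other 3 pooled regions of the window are weak, with ranks of 13907 to 20361.

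The gene nspc-17 (WBGene00008359, X 14524754 to 14525181, minus strand) belongs to a family of nematode-specific peptides, group C, whose members lie in clusters on X. The summit is 702 bases upstream of nspc-17. The same peak also falls in the windows of nspc-16, nspc-18, nspc-19 and nspc-20, so its tie to nspc-17 rests on distance only. The signal value is 25.3 at rank 58 in the pooled list and 22.0 at rank 19 in replicate 1. In replicate 2 the strongest overlapping region has a signal value of 4.30 and rank 8723, with its summit 215 bases away. The region of replicate 2 that covers the core word itself ranks 27615 of 30000, so replicate 1 alone matches the pooled rank. A further region of replicate 1, with its summit 918 bases upstream of the gene and rank 154, overlaps the peak and covers the same core word, and it has a pooled counterpart at rank 2027. All 32-base words of the peak occur once in the genome, so the related nspc genes repeat no exact 32-base stretch of it. Copies with mismatches were not searched.

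F20B6.9 (WBGene00017632, X 4204602 to 4207485, minus strand) encodes a protein that RefSeq lists as uncharacterized. Its summit is 1869 bases upstream of the nearer 5′ end and 1217 bases from the 3′ end of hpk-1, the homeodomain-interacting protein kinase gene, whose start is 5207 bases away. The signal value is 36.6 at rank 13 in the pooled list, the highest of the members. It is 30.1 at rank 4 in replicate 1 and 7.58 at rank 895 in replicate 2. The summit of replicate 1 lies 163 bases from the pooled one and that of replicate 2 lies 14 bases away, on opposite sides of the core word.

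**Figure D2:**
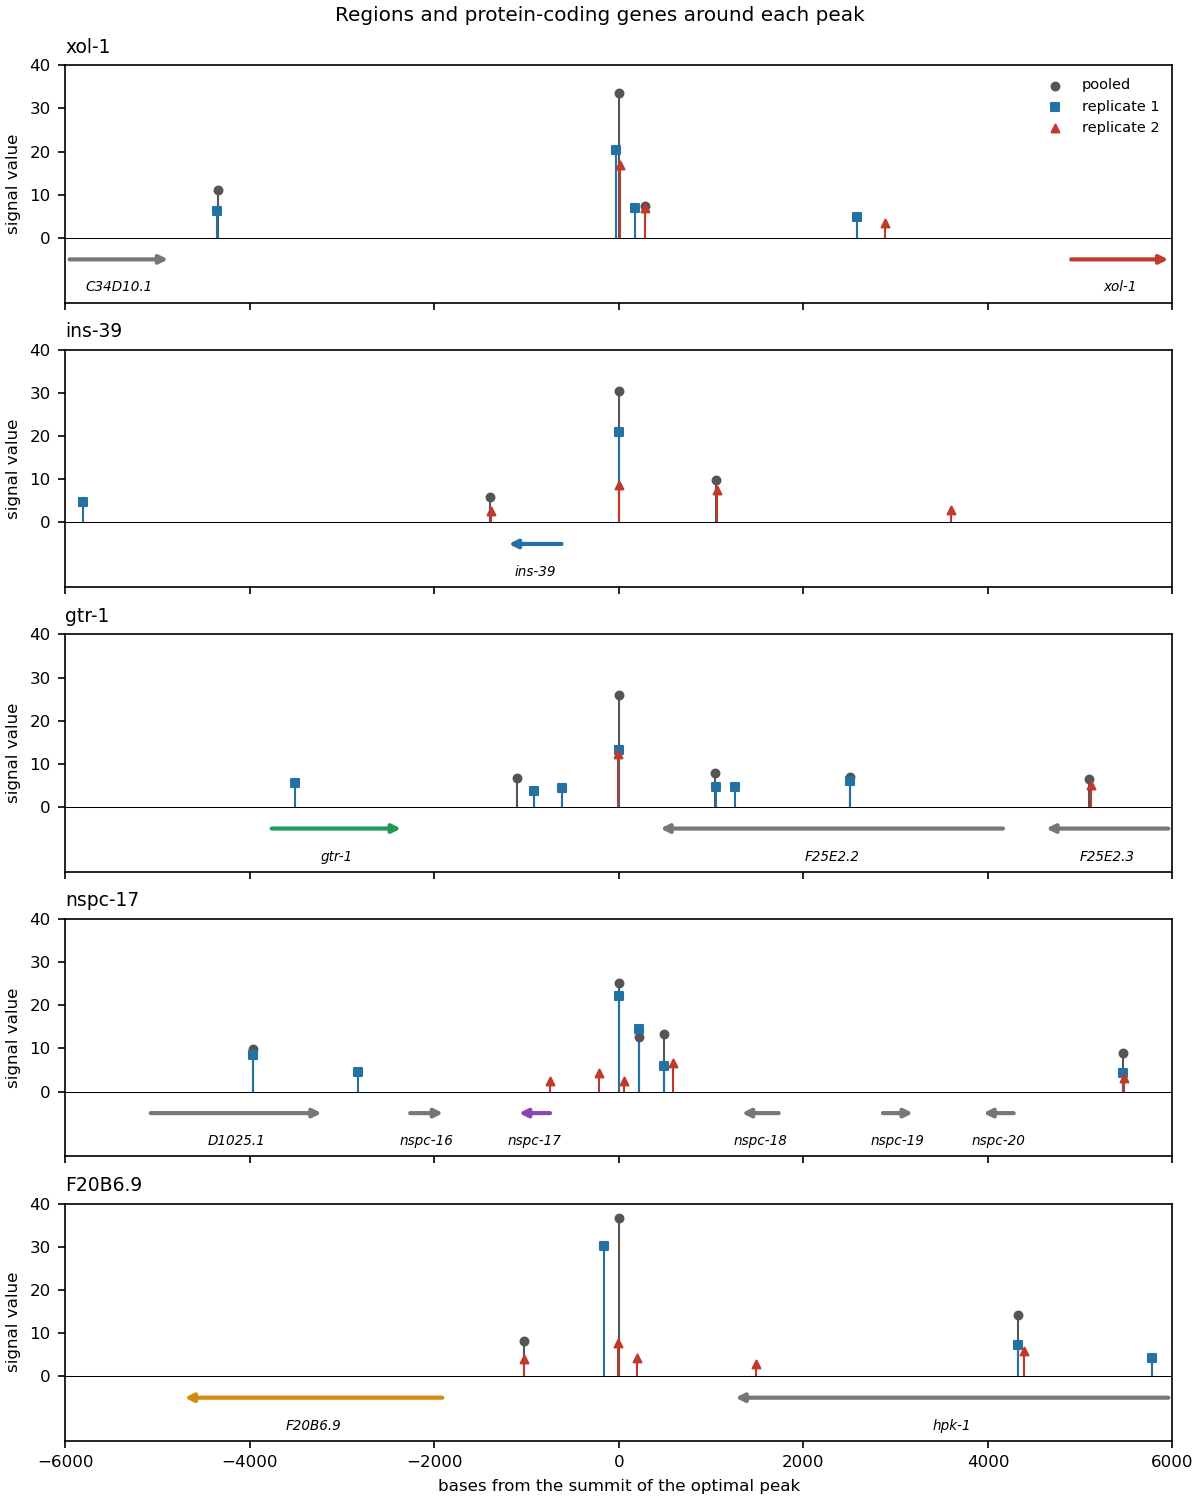
Regions and genes around each member's optimal peak. The x axis gives bases from the summit of that peak, the y axis the authors' signal value, each stem the summit of a region in the pooled list (circles), replicate 1 (squares) or replicate 2 (triangles), and arrows protein-coding genes with their direction. Signal values of different lists are not on 1 scale. At the nspc-17 peak the regions of replicate 2 are weaker than its own region further upstream of the gene, which has a signal value of 6.65.

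Each member has 1 optimal peak, against 36 of the 2731 protein-coding genes on X (1.32%), a count that the choice of members fixed. A pooled region among the strongest 500 lay in the window of 152 X genes (5.57%) and of all 5 members, likewise by the choice. For replicate 1 alone such a region was present for 179 X genes (6.55%) and all 5 members. For replicate 2 alone it was present for 177 X genes (6.48%) and for 3 members, xol-1, gtr-1 and ins-39. The counts for the replicates are no separate support, because ranks in the replicates were part of what chose the peaks. In nspc-17 and F20B6.9 the best regions of replicate 2 anywhere in the window had ranks 1676 and 895. The median best rank over X genes with a region was 5457 in the pooled list, 5354 in replicate 1 and 5350 in replicate 2. Windows held 2 to 4 pooled regions for the members and a median of 3 for X genes. The −log10 q that the authors deposited was 1.94 for the peaks of xol-1, ins-39 and F20B6.9, a value tied over 44 optimal peaks, and 1.32 for gtr-1 and 1.36 for nspc-17.

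**Figure D3:**
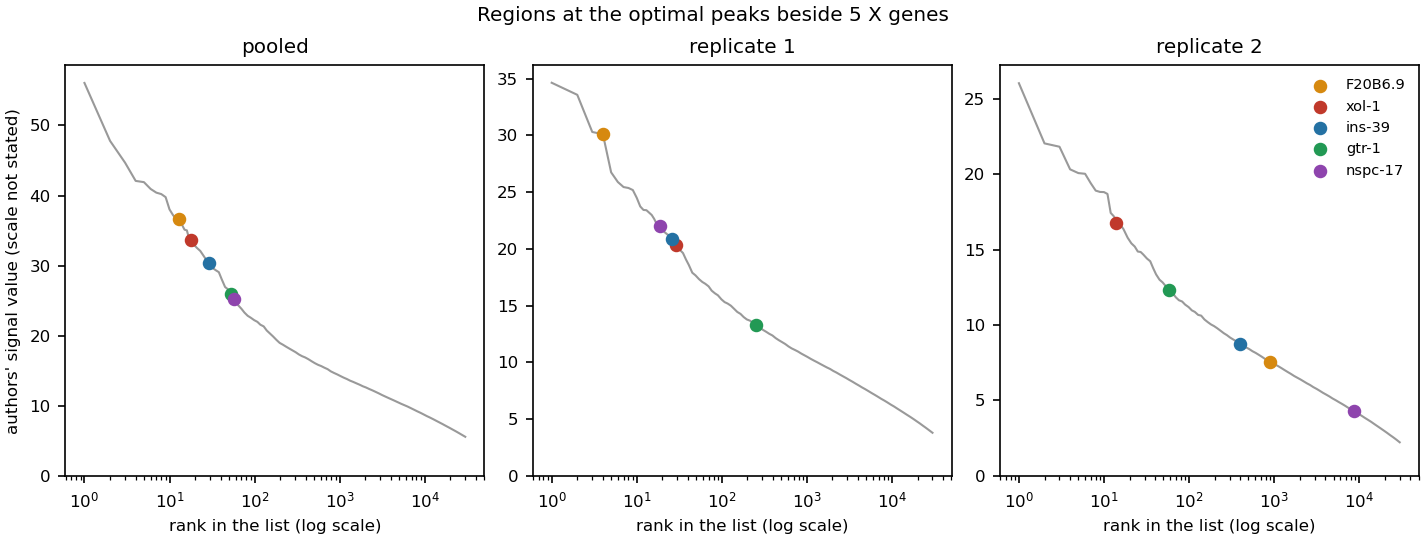
Signal value against rank (log scale) for the pooled list and each replicate, with the strongest region overlapping the optimal peak of each member as a point on the grey curve of all 30000 regions. The points lie together in the pooled list and in replicate 1, apart from gtr-1, and spread from rank 14 to rank 8723 in replicate 2.

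Over the 6 peaks the rank had a median of 22.5 in replicate 1, with a range of 3 to 252, and of 226.5 in replicate 2, with a range of 14 to 8723. The sixth peak, nearest to W02H3.3, had ranks 3 and 60. For the other 15 X optimal peaks the medians were 57 and 64 and the highest ranks 214 and 942. The ranges overlap in both replicates, and ranks in the replicates were part of what chose the peaks, so no test was made. Of the 63 strongest regions in each replicate, 7 held the core word in replicate 1, all on X, and 4 in replicate 2, 3 of them on X.

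**Figure D4:**
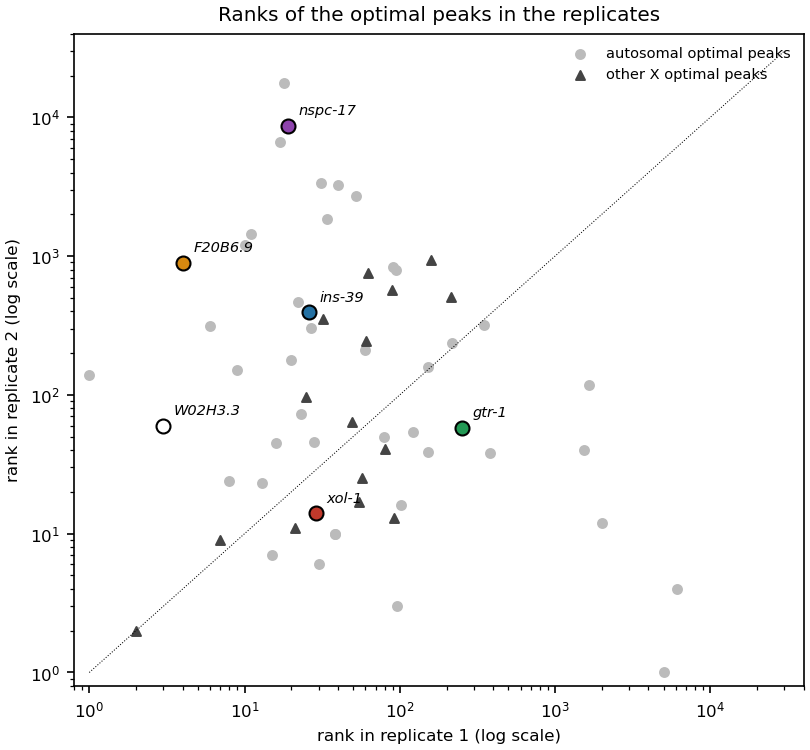
Rank of the strongest overlapping region in replicate 1 (x axis) and replicate 2 (y axis), both on log scales, for the optimal peaks with a region in both. Coloured circles are the members, the open circle is the peak nearest to W02H3.3, triangles are the other X peaks, grey circles are autosomal peaks, and the dotted line marks equal rank. Of the members, xol-1 alone ranks within the first 63 in both.

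The 6 peaks had a low G+C content. It was 33.0% at xol-1, 37.8% at ins-39, 34.5% at gtr-1, 30% at nspc-17, 35.0% at F20B6.9 and 36.2% at the peak nearest to W02H3.3. The other 15 optimal peaks on X ran from 34.5% to 53.8% with a median of 46.8%, and 6 of them were at or below the highest of the 6. The 5778 other pooled regions on X had a median of 35.8%, close to that of the 6 peaks, which was 34.8%. Words frequent in the remaining optimal peaks were searched over whole peaks too. GAGAGA stood in none of the 6 peaks, in 7 of the 15 other X peaks, and in 31 of the 42 autosomal peaks. Its share over pooled regions outside the optimal list was 22.8%. CGTCTC stood in the gtr-1 peak alone, against 6 of 15, 26 of 42 and 12.3%. TGATAC or TGACAC, searched as parts of sites known for mammalian proteins of the sine oculis type, stood in the F20B6.9 peak alone, against 8 of 15, 16 of 42 and 26.4%. ACACAC stood in the peaks of xol-1, ins-39 and nspc-17, 3 of 6, against 7 of 15, 26 of 42 and 14.8%. The G+C content differs between these sets as well, and its part in the word counts was not tested.

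All 6 peaks were between genes, as were 11 of the other 15 on X. Their distance to the nearest transcript start ran from 577 bases at ins-39 to 4857 bases at xol-1, with a median of 2839, against a median of 1346 and a range of 90 to 6111 for the other X peaks. They were spread along X, each at least 282181 bases from the nearest other optimal peak, with a median of 690886. For the other 15 X peaks that gap ran from 1818 to 1081486 bases with a median of 305891. All 32-base words were unique in the genome in 5 of the 6 peaks, and 94.3% of them in the gtr-1 peak. Among the other 15 X peaks the median was 100% as well and the lowest 71.8%. In the second build, ce10, the optimal list held a partner with the same chromosome and a signal value within 0.01 for the peaks of xol-1, ins-39, gtr-1, F20B6.9 and W02H3.3, at the same ranks as on ce11. The nspc-17 peak had none, and neither did any other optimal peak from rank 54 to rank 63 on ce11. Of the other optimal peaks, 13 of 15 on X and 34 of 42 on autosomes had a partner. The last optimal peak on ce11 had a signal value of 24.42 and the first pooled region outside the list 24.36, and nspc-17 with 25.3 is near that edge.

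How often the core word is found in a region was asked over the genome. It occurs 95 times on X (5.36 per Mb) and 279 times on the autosomes (3.38 per Mb). On X 25 occurrences (26.3%, exact Clopper-Pearson 95% interval 17.8 to 36.4) were inside a pooled region, and on autosomes 33 (11.8%, 8.28 to 16.2). Regions covered 12.6% of the bases of X and 11.3% of those of the autosomes. Without the 9 copies in optimal peaks, whose presence the choice fixed, 16 of 86 X occurrences were inside a region (18.6%, 11.0 to 28.4). That interval includes the covered share, as does that of replicate 1 (15 of 86, 17.4%, 10.1 to 27.1, against 12.6% of bases). In the list of replicate 2 it does not, with 18 of 86 (20.9%, 12.9 to 31.0) against 12.3% of bases. Among the 2000 strongest pooled regions, which cover 1.01% of the bases of X, 7 of the 86 were inside one (8.14%, 3.34 to 16.1). Among the 500 strongest, which cover 0.25%, 3 of 86 were (3.49%, 0.725 to 9.86). Both of these intervals lie above the covered share, though they rest on few copies. The remaining X copies thus exceed it in the strong pooled regions and not detectably over all 30000. On autosomes 3 of 279 were inside one of the 500 strongest (1.08%, 0.222 to 3.11), also above the covered 0.187%. For the 2000 strongest it was 5 of 279 (1.79%, 0.584 to 4.13), and that interval includes the covered 0.741%. The intervals cover counting error over occurrences only. The covered share, here and for the 10-base word below, takes no account of base composition, whose part was not tested.

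The 10-base word occurs 19 times on X (1.07 per Mb) and 6 times on the autosomes (0.0727 per Mb). On X 12 of 19 were inside a pooled region, 8 of them in the optimal peaks. The other 4 lay in regions of rank 201 near Y41G9A.17, 265 near col-185, a cuticle collagen gene, 556 near cest-16 and 7318 near Y62H9A.9. Without the 8 in optimal peaks the share was 4 of 11 (36.4%, exact interval 10.9 to 69.2), and the covered share of 12.6% is inside the interval. In the list of replicate 2 it was 5 of 11 (45.5%, 16.7 to 76.6) against 12.3% of bases, and in that of replicate 1 3 of 11 (27.3%, 6.02 to 61.0) against 12.6%. Among the 2000 strongest pooled regions it was 3 of 11 (27.3%, 6.02 to 61.0) against 1.01%, and among the 500 strongest 2 of 11 (18.2%, 2.28 to 51.8) against 0.25%. The 10-base word was itself found in the optimal peaks. The 7 without a pooled region include copies 188 bases from a start of daf-12, the nuclear receptor gene, and near ctbp-1, aakg-4 and svh-5. On autosomes 0 of 6 were inside a region (upper exact bound 45.9%).

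**Figure D5:**
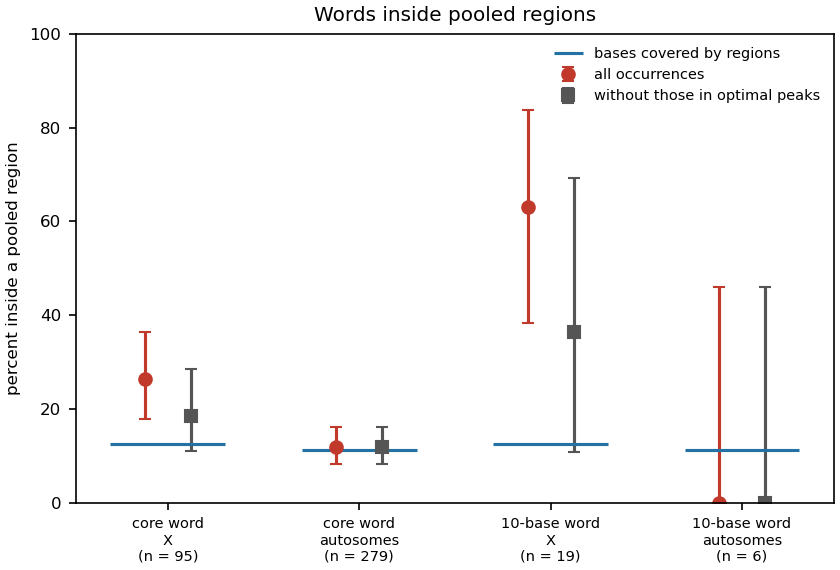
Percent of occurrences of the core word and of the 10-base word that lie inside a pooled region, on X and on autosomes. Circles are all occurrences, squares those outside optimal peaks, bars are exact 95% intervals, and the horizontal lines give the percent of bases that regions cover. The share for the core word on X is 26.3%, and 18.6% without the copies in optimal peaks.

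Genes of dosage compensation and sex determination were looked at as a list by known role, with the same windows. Of the 10 genes of the complex, 9 had no pooled region among the strongest 500. These include sdc-2, the loading protein gene (best pooled rank 1336), sdc-3 (4389), dpy-27 (4653) and dpy-21 (4306). The exception was dpy-28, a condensin subunit gene on III, with an optimal peak of rank 27 that lies 3883 bases upstream of its start and holds no core word. That peak is nearer to other genes, with the start of tasp-1 at 59 bases and that of K01G5.10 at 726 bases. That region ranked 1 in replicate 2 and 5005 in replicate 1. Among X signal elements, which repress xol-1, fox-1, an RNA-binding protein gene (1665), sex-1, a nuclear receptor gene (1710), and ceh-39, a homeobox gene (16071), had no region among the strongest 500, and the listed sex-2 was not matched by name. Neither autosomal signal element, sea-1 or sea-2, had one, nor did any of the 7 downstream genes her-1, tra-1, tra-2, tra-3, fem-1, fem-2 and fem-3. Over all protein-coding genes the share with such a region was 5.07%.

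The families of the members were counted in the same way. Of 38 insulin-like peptide genes 2 had a pooled region among the strongest 500, ins-39 and ins-13 on II (rank 359), and ins-39 alone had an optimal peak, against shares of 5.07% and 0.751% over all protein-coding genes. Of 18 nspc genes, all on X, 7 had an optimal peak in the window, against 1.32% of X genes, but these are 2 peaks counted several times. One is the peak of nspc-17 with its 4 neighbours, and the other, at rank 40 with ranks 49 and 64 in the replicates, is shared by nspc-14 and nspc-15 and holds no core word.

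The X genes most like each member in their best ranks over the 2 replicates were found by the distance between log10 ranks. For ins-39 this was Y41G9A.17 (ranks 35 and 355), for xol-1 F55G7.3 (21 and 11), for gtr-1 T27A8.2 (244 and 81) and for nspc-17 sma-9 (59 and 1791). For F20B6.9 it was nspc-16 (19 and 1676), whose rank in replicate 1 is that of the nspc-17 peak and whose rank in replicate 2 comes from a neighbouring region that does not overlap it. At xol-1 and gtr-1 2 genes, and at F20B6.9 4 genes, shared that distance. These rest on 2 values for each gene, and the replicates did not rank all the members alike. The window of Y41G9A.17 also holds a copy of the 10-base word inside the region of rank 35 in replicate 1, while replicate 2 had no region over that copy.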

How the data were processed

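ChIP-seq of tagged UNC-39 in whole L4 larvae gave 2 replicates in 1 group, so no groups were compared and no test was run. The authors deposited narrowPeak lists on ce10 and ce11 with a signal value and a −log10 q for each region. Per the labels and the deposited notes, replicate lists came from each replicate's alignments and a further file, the pooled list from both alignments, and the optimal list from all of these by IDR, a reproducibility method. Aligner, caller, threshold and depth were not given in the labels or notes used here. The column for −log10 p is constant and holds no result.

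Regions were ranked by signal value within each list. Genes are those of Ensembl release 115 and sequence that of RefSeq, both WBcel235, which has the coordinates of ce11. Placement used summits, and overlap with a replicate's region at least 1 base. Words were searched exactly on both strands unless said. The search for 10-base words recovered the planted word in 20 of 20 draws when tested on simulated data.

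The members, lists and words were chosen with earlier results of these data known. Named genes are the members, their neighbours, genes nearest to a peak with the core word, listed genes with a strong region and the gene most like each member. Genes near further copies of the 10-base word, and list genes without a strong region, were named after their values were seen. Alternatives changed the window, the placement, the word, the number of regions and the list used. Software was Python 3.11.15, numpy 2.4.6, scipy 1.17.1 and matplotlib 3.10.9.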

Additional observations from a re-analysis of the deposited data

How the results depend on the processing

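All 5 members had an optimal peak. With each replicate's list alone, one of its 63 strongest regions was present for 2 members in replicate 2 (xol-1 and gtr-1) and 4 in replicate 1 (all but gtr-1). The share of X genes with such a region was not counted. One of the 500 strongest regions was present for 3 members in replicate 2, against 6.48% of X genes. In replicate 1 it was present for 5, against 6.55%, and in the pooled list for 5, against 5.57%. Ranks in all these lists were part of the choice of members. A window of 2000 bases left 3 members, ins-39, nspc-17 and F20B6.9, while 10000 bases or any overlap left 5. The 6 optimal peaks with the core word became 21 when 1 mismatch was allowed. These were 11 of the 21 optimal peaks on X and 10 of the 42 on autosomes. The share of other pooled regions was not counted at that setting. With GCGCAG they became 19. Besides the 6, it stood in 3 of the other 15 X peaks (20%) and 10 of the 42 autosomal ones (23.8%), against 5.03% of other pooled regions. The shorter word was thus not particular to X. Peaks with the word were 6 within 100 bases of the summit or with the 10-base word, and 4 to 7 among the strongest regions of a single replicate. The share of X core words inside a region, 26.3%, was 16.8% for the 2000 strongest pooled regions, which cover 1.01% of X bases against 12.6% for all, 63.2% for the 10-base word and 18.6% without the copies in optimal peaks. The last pair, and the 10-base word as the search word above, were chosen after seeing the data. It was 25.3% to 28.4% with each replicate's list alone. Ranking by −log10 p was not run because that column is constant. With unknown depth, no limit on weaker binding can be given.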

Other observations

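The sixth peak with the core word lies on X at 11094020 to 11094419, nearest to the start of W02H3.3 at 3966 bases, which encodes a protein with a DUF148 domain. Its signal value of 42.1 and rank 4 in the pooled list are above those of all 5 members. It ranked 3 in replicate 1, with a signal value of 30.3, and 60 in replicate 2, with 12.2. Its words start 101 bases apart on the same strand, each with GTGGATAA downstream. A tRNA gene, WBGene00014538, lies 1453 bases from its summit.

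Among pooled regions outside the optimal list, the core word stood in 16 of 5778 on X (0.277%) and in 35 of 24140 on autosomes (0.145%). The 10-base word stands more than once near Y41G9A.17. The copy at X 2997123 to 2997132 is in the pooled region of rank 201, and that at X 2997298 to 2997307 is in no pooled region, though replicate 2 has a region of rank 12694 over it.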
